A study of Solanum lycopersicum with 12 samples.

Results

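A set of 42 array probes had a higher signal in tomato seedlings after 24 h with MBI600 CFCF than in the control, and they were selected for a small mean difference between flg22 and the control. MBI600 CFCF is the cell-free culture filtrate of the plant-associated bacterium Bacillus amyloliquefaciens MBI600, and flg22 is a peptide of bacterial flagellin that plants detect. The members were chosen among 43603 probes (0.0963%) and were selected on the log2 signals of the 24 h arrays and of the control and flg22 arrays at 6 h. At 24 h, the mean of the MBI600 CFCF arrays had to lie at least 1 log2 unit above the control mean, with both MBI600 CFCF arrays above both control arrays (as in 24.2% of all probes), and the mean of the flg22 arrays less than 0.5 above it. At 6 h, the flg22 difference had to lie between -1 and 2, and on both MBI600 CFCF arrays at 24 h the spot had to be well above background. The first condition left 241 probes, the order of the arrays 239, the limit on flg22 45 and the range at 6 h 42, and the last condition removed none of these.

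The seedlings were 15 days old, were grown on MS medium (Murashige and Skoog plant nutrients) and were kept in liquid MS during treatment; of the genotype the sources used here state only the species. The 3 treatments were sampled at 6 and 24 h: MBI600 CFCF added to the medium at 20% by volume, flg22 at 1 µM, and a control. The labels call the control untreated or in water, and the methods describe it as LB bacterial broth, at the same share, with MS. By the methods the control therefore held LB, and LB is not described for flg22. Each of the 6 groups had 2 arrays, and each array the RNA of 2 pooled whole seedlings, so roots and shoots were measured together and p-values cover only the spread between these samples. The seedling RNA was read in the green (Cy3) channel of 2-colour Agilent arrays, and what the red channel held was not stated in the sources used. Each array had 43803 spots that were not controls; the share well above background was 69.8% to 81.7%, with 0 saturated spots. The 12 arrays lay on 3 slides. MBI600 CFCF at 24 h lay on slides 1 and 3, whereas the control and flg22 at 24 h both lay on slides 1 and 2, so that slide 1 alone held all 3 treatments at this time.

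Plants sense flg22 through the receptor kinase FLS2, which starts a burst of reactive oxygen, a MAP kinase cascade and the transcription of defence genes. A culture filtrate of Bacillus holds many secreted products besides flagellin, among them cyclic lipopeptides such as surfactin, enzymes and volatile compounds, some of which are known to set off induced systemic resistance. Setting the filtrate beside flg22 asks which genes respond to the one and not to the other. The set has to be read with the way it was chosen, since with 2 arrays per group the error of an array and the effect of a treatment both enter the choice.

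Only 4 of the 42 probes could be given a gene symbol, and 38 could not. The array's annotation listed 41 sequence names for the 42 probes, and RefSeq accessions matched 4884 of all 43603 probes to 2232 symbols. The 4 symbols were PR-5, which stands for a thaumatin-like pathogenesis-related protein of salicylate-dependent defence, PHYB1, the red-light photoreceptor phytochrome B1, and LOC100316879 and LOC101246382, for which the tables used here give no product. The other members are named by their probe identifiers.

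The excess over the control at 24 h was small in most members and large in 3. It ranged from 1.00 to 3.82 (log2) with a median of 1.12, a 2.17-fold difference, and 35 of the 42 lay under 1.3. In A_96_P083829, A_96_P128967 and A_96_P087624 it was at least 2, against 0.0642% of all probes with a difference of that size in either direction. The flg22 difference from the control ranged from -0.32 to 0.49 with a median of 0.30 and was above 0 in 39 members and below 0 in 3. These values chose the members and are given as a description. Among the 239 probes that passed the first conditions, 194 had a flg22 difference of at least 0.5, and 103 of at least 1. Both differences subtract the same control arrays, so choosing a high MBI600 CFCF difference also favours a high flg22 difference. The shares over all probes are not given, and nothing is read from these counts about a shared response. The members lay next to the probes over the flg22 limit without a gap. The members just inside the limit of 1 were A_96_P201069 and A_96_P080264, both at 1.00, and A_96_P219289 and A_96_P066141 lay just outside at 0.9987. At the flg22 limit, A_96_P080264 (0.495) and A_96_P069849 (0.493) lay inside, and A_96_P059621 (0.5006) and A_96_P204749 (0.5011) outside.

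**Figure D1:**
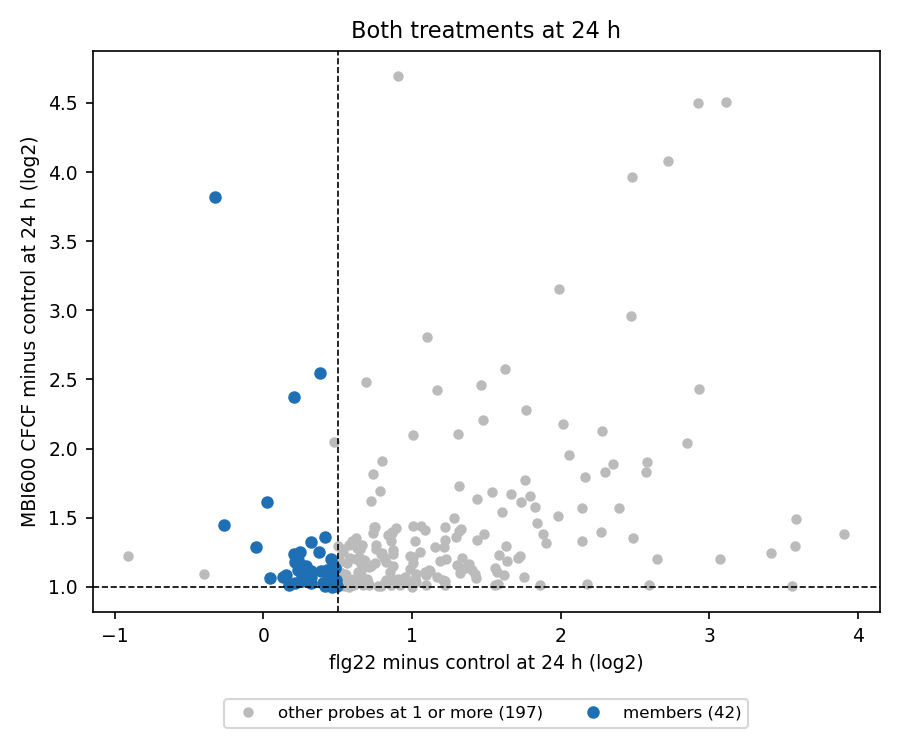
Difference from the control at 24 h (log2) for flg22 (x axis) and MBI600 CFCF (y axis) of the 239 probes at least 1 above the control with MBI600 CFCF and with separate arrays, each point 1 probe; dashed lines mark the limits of 0.5 and 1. The 42 members (blue) form the left edge of one cloud, apart from A_96_P083829 at 3.82 and a few others, and the 3 grey points left of the line missed the range for flg22 at 6 h.

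A_96_P083829 stood out most. Its log2 signal was 11.26 and 10.44 on the MBI600 CFCF arrays at 24 h, 7.07 and 6.98 on the control arrays and 6.30 and 7.12 on the flg22 arrays. At 6 h it lay between 6.30 and 6.52 on all 6 arrays. Both MBI600 CFCF arrays at 24 h were thus 3.32 or more above each of the other 10, and the mean was 10.85 ± 0.58 (SD, n = 2) against 7.03 ± 0.06 in the control, a 14.1-fold difference. The probe was well above background on all 12 arrays. The difference from the control was 4.18 on slide 1 alone, where flg22 was 0.78 below the control.

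A_96_P128967 followed with 8.90 and 8.33 on the MBI600 CFCF arrays at 24 h, against 6.21 and 5.93 in the control and 6.20 and 6.70 with flg22. The 6 h arrays ranged from 5.92 to 6.18. No other array came within 1.62 of the lower MBI600 CFCF array at 24 h, and the mean difference from the control was 2.55 (limma SE 0.22, 2 arrays per group), or 5.84-fold. One of the 2 control arrays and 5 of all 12 arrays were well above background for this probe, so its control value is near the floor of the measurement and the fold is approximate.

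These were the only members that passed both thresholds, an adjusted p under 0.1 and a log2 difference of 2 or more in size, in limma's empirical Bayes test of MBI600 CFCF against the control at 24 h (adjusted p = 0.0554 for both). Over all probes 0.00459% passed, which was the same 2 probes, and because the rule used this contrast the count is a description. The direct comparison of MBI600 CFCF with flg22 at 24 h, whose arrays the rule also used, gave a difference of 4.14 for A_96_P083829 (SE 0.30, adjusted p = 0.0324) and of 2.16 for A_96_P128967 (SE 0.22, adjusted p = 0.0960) in limma, and 2 of the 42 against 0.00688% of all probes passed both thresholds. The calls against the control depended on single arrays, while the differences stayed at 3.41 to 4.23 for A_96_P083829 and 2.26 to 2.83 for A_96_P128967 with a single array left out. Without either control array or without MBI600 CFCF replicate 1 at 24 h 0 members were called, and without MBI600 CFCF replicate 2 there were 4. In such fits 1 array stands alone in its group, and its spread is assumed from the remaining groups.

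One sequence entered the set through 2 probes. A_96_P087624 gave 9.29 and 7.28 on the MBI600 CFCF arrays at 24 h, and A_96_P229169 gave 8.36 and 6.67. On the other 10 arrays A_96_P087624 lay between 5.81 and 6.21 and A_96_P229169 between 5.78 and 6.08. In both, the first replicate was the higher and no other array reached either MBI600 CFCF array. Neither probe was well above background on any control array at 24 h, so only a lower bound can be given, against the lowest signal well above background on the array or the probe's own signal, whichever was higher. A_96_P087624 was at least 5.04-fold higher with MBI600 CFCF (measured means 8.29 and 5.91) and A_96_P229169 at least 2.93-fold (7.51 and 5.90), with an adjusted p of 0.728 in limma for both. The probes share a transcript and are not separate evidence of a treatment effect. A_96_P216559 (at least 2.50-fold) and A_96_P092574 (at least 1.98-fold), chosen after their values were seen, also had no control array at 24 h well above background, with adjusted p of 0.728 and 0.683 in limma. Of the other members, 3 had 1 such control array and 35 had both.

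PR-5 gave 6.56 and 7.89 on the MBI600 CFCF arrays at 24 h, 6.19 and 5.97 on the control arrays and 6.07 and 6.66 on the flg22 arrays. At 6 h its 6 values lay between 5.89 and 6.17, and MBI600 CFCF differed from the control by -0.02 (SE 0.38, adjusted p = 0.996 in limma). The excess of 1.15 at 24 h (2.22-fold) came mainly from the second MBI600 CFCF array, since the first lay below the second flg22 array. On slide 1 the difference was 0.37, and the range over fits that leave out a single array was 0.48 to 1.82. The probe was well above background on 5 of the 12 arrays, 1 of them a control array at 24 h.

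PR-5 was the single member in any of the 13 pathway lists. Of the 11 genes of the salicylate list that a symbol could be matched to, 10 were higher with MBI600 CFCF than with the control at 24 h and 0 were called in either direction, with a median difference of 0.51 against -0.01 over all probes. The same list had a median difference of 1.01 with flg22. Its 11 genes as matched included the proteases P69A, P69B and p69c, which had been planned for the list of PR proteins and proteases. The count of 10 and the medians of 0.51 and 1.01 therefore do not rest on salicylate genes alone, and values without these proteases are not given. The largest differences in the salicylate list as matched were those of PR1b1 (4.51 with MBI600 CFCF and 3.12 with flg22) and the subtilisin-like protease P69B (2.42 and 1.17). Both were over the flg22 limit of 0.5 and hence not members. The MBI600 CFCF difference had an SE of 0.84 for PR1b1 (adjusted p = 0.683 in limma) and of 0.90 for P69B (adjusted p = 0.728 in limma). The paper's qPCR reported P69B raised at 24 h by MBI600 CFCF and found no difference from the control with flg22. No SE is given here for the flg22 difference of 1.17, so a conflict with the qPCR cannot be read from it. The flg22 difference of PR-5 was 0.29, with the second flg22 array above both control arrays. Of 13 genes of the jasmonate list 8 were higher, and of 33 of the ethylene list 16, with medians of 0.09 and -0.02 and 0 called. Of 7 PR proteins and proteases, a list that shares its P69 proteases with the salicylate list, 6 were higher, with a median of 0.77 with MBI600 CFCF and 1.15 with flg22. The other 9 lists held 4 to 37 genes each, with medians between -0.15 and 0.28 and 0 called. The markers of green tissue (6 of 8 higher, median 0.14) and of roots (5 of 12 higher, median -0.41) also had 0 called. In RNA of whole seedlings, fewer cells of a type and less RNA per cell cannot be told apart, and the part of a shift between organs in the members' values was not tested.

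PHYB1 had another course. The member probe A_96_P221809 gave 11.35 and 11.12 on the MBI600 CFCF arrays at 24 h, 10.77 and 9.68 on the control arrays and 11.37 and 9.90 on the flg22 arrays. At 6 h the control arrays were at 10.99 and 11.13, flg22 at 10.60 and 10.74 and MBI600 CFCF at 10.75 and 9.33. The first flg22 array was thus as high as the MBI600 CFCF arrays, and the difference of 1.01 (limma SE 0.59, 2 arrays per group) at 24 h went with a low second control array. Within slide 1, MBI600 CFCF was 0.58 and flg22 0.60 above the control.

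Of the other probes of PHYB1, A_96_P012266, with a mean log2 signal of 9.63, differed from the control at 24 h by -0.33. A_96_P161336 differed by 0.11, with a low mean signal of 6.32, though it was well above background on all 12 arrays. A_96_P054621 differed by 0.02, but its mean signal of 5.99 lay near the floor. It was well above background on 1 of the 12 arrays, so a change would hardly show in it. The 12 probes of the other phytochromes PHYA, PHYB2, PHYE and PHYF, which share the light-sensing function, ranged from -0.44 to 0.52. Several of these also had low signals, in which a change could be missed. The lowest mean was 6.24 in A_96_P232859, which was well above background on 9 of the 12 arrays. For LOC100316879, the member probe A_96_P206949 differed by 1.20 (8.63 and 8.70 with MBI600 CFCF, 7.89 and 7.03 in the control, 8.52 and 7.32 with flg22), whereas its other probes A_96_P077929 and A_96_P011416 differed by 0.33 and -0.06.

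The other probes of LOC101246382 were closer to its member probe. Its member probe A_96_P010296 gave 12.39 and 12.17 with MBI600 CFCF at 24 h, 11.47 and 10.85 in the control and 12.01 and 11.20 with flg22, a difference of 1.12 from the control. A_96_P195174 and A_96_P175234, of the same gene, differed by 1.31 and 1.17, A_96_P091749 by 0.57 and A_96_P237962 by 0.21. The flg22 difference was 0.76, 0.50 and 0.51 in the first 3 of these and 0.44 in the member, so the gene fell on either side of the flg22 limit depending on the probe. In all, 10 of the sequences had further probes, 30 of them outside the set, with a median difference of 0.54 (range -0.33 to 1.31). A difference of at least 1 was found in 5 of the 30, and all 5 had a flg22 difference of at least 0.5, which kept them out of the set. Among these was A_96_P234584 (1.20, with flg22 at 0.51), a second probe of the sequence of A_96_P257827 (1.25, with flg22 at 0.38).

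**Figure D2:**
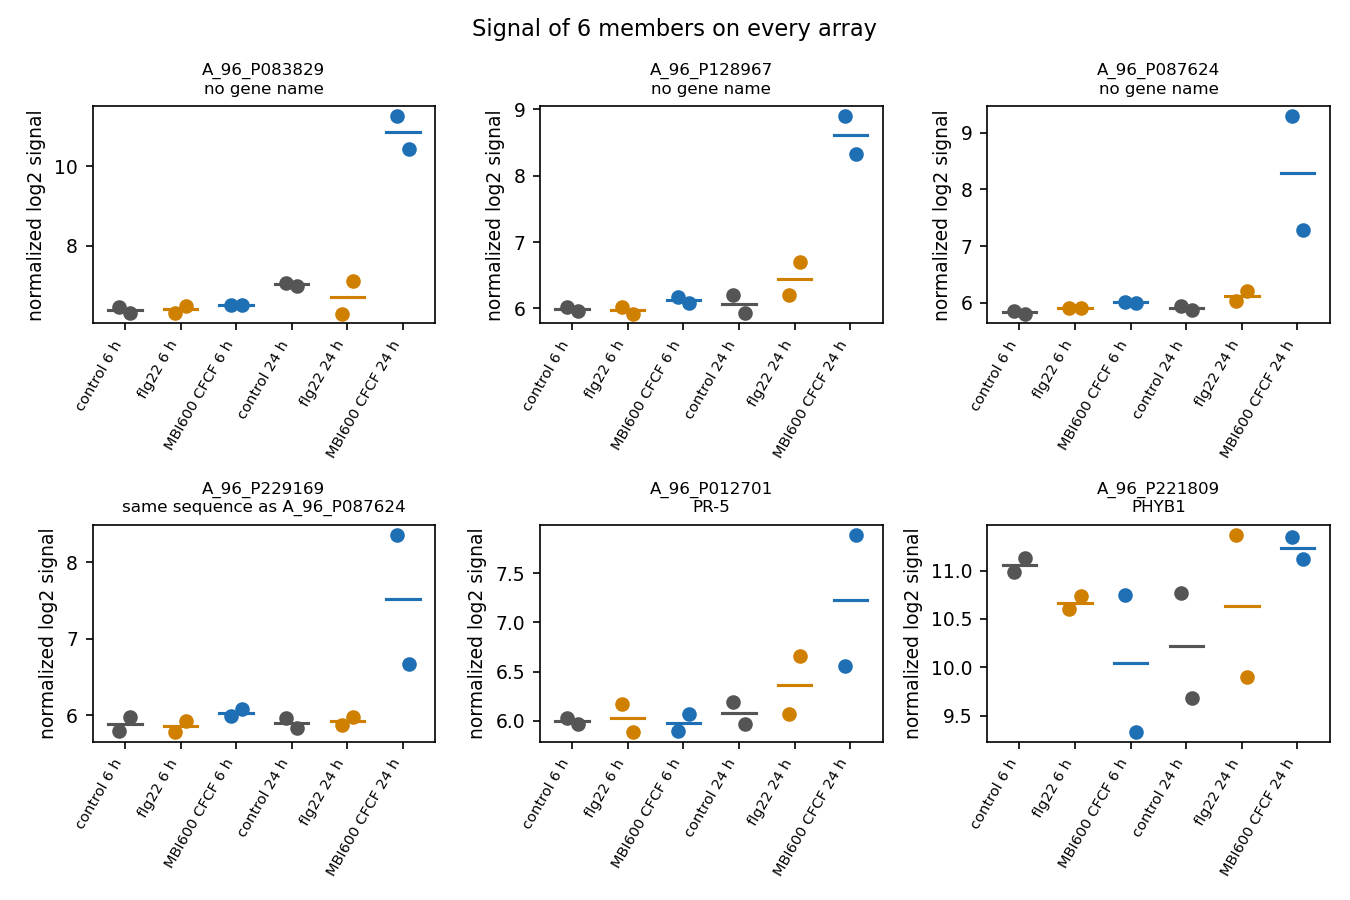
Normalized log2 signal (y axis, own scale per panel) of 6 members on each of the 12 arrays, by treatment and time (x axis); points are arrays and lines the mean of 2. The first 4 panels are high only with MBI600 CFCF at 24 h, PR-5 mainly on 1 of its arrays, and PHYB1 spreads by over 1 log2 unit within 3 groups.

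The members were divided by whether their mean control signal at 24 h lay below or above the median of all probes (7.12), a division made after the values were seen and not tested; signal depends on the probe as well as on the transcript. The 11 members below it were A_96_P083829, A_96_P128967, A_96_P087624, A_96_P229169, A_96_P033196, A_96_P216559, PR-5, A_96_P056241, A_96_P092574, A_96_P199469 and A_96_P201069. Both MBI600 CFCF arrays at 24 h exceeded all 10 other arrays in 9 of these 11, an order that the rule favours. After subtraction of each probe's own mean, these 11 averaged 1.59 and 1.06 on the MBI600 CFCF arrays at 24 h and from -0.44 to 0.01 on the other 10. Within slide 1, their median difference from the control was 1.27 with MBI600 CFCF and -0.01 with flg22.

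The 31 members above it varied together over all arrays and not only between treatments. Their mean centred signal was 0.91 on both MBI600 CFCF arrays at 24 h, 0.29 and -0.70 on the control arrays and 0.69 and -0.52 on the flg22 arrays. At 6 h it was 0.08 and 0.15 in the control, -0.46 and -0.22 with flg22, and 0.03 and -1.16 with MBI600 CFCF. The first replicate exceeded the second in 30 of the 31 in the control at 24 h, in 30 with flg22 at 24 h and in 31 with MBI600 CFCF at 6 h, by a median of 1.01 in the control. The rule favours probes that are low on the second control and flg22 arrays at 24 h. The shares of all probes with these orders are not given, so nothing is read from the counts. The control replicates of the 11 members above differed by a median of 0.17. Only 4 of these 11 had both control arrays at 24 h well above background, and near the floor replicates can differ little. Of the 31, 16 had both MBI600 CFCF arrays at 24 h above all 10 others, and 12 had the first flg22 array above the lower of them. A_96_P052361, chosen after its values were seen, was the least like the others, with 11.12 and 10.48 on the MBI600 CFCF arrays at 24 h, 9.27 and 9.43 in the control, 8.68 and 9.50 with flg22 and 7.09 to 9.05 at 6 h.

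**Figure D3:**
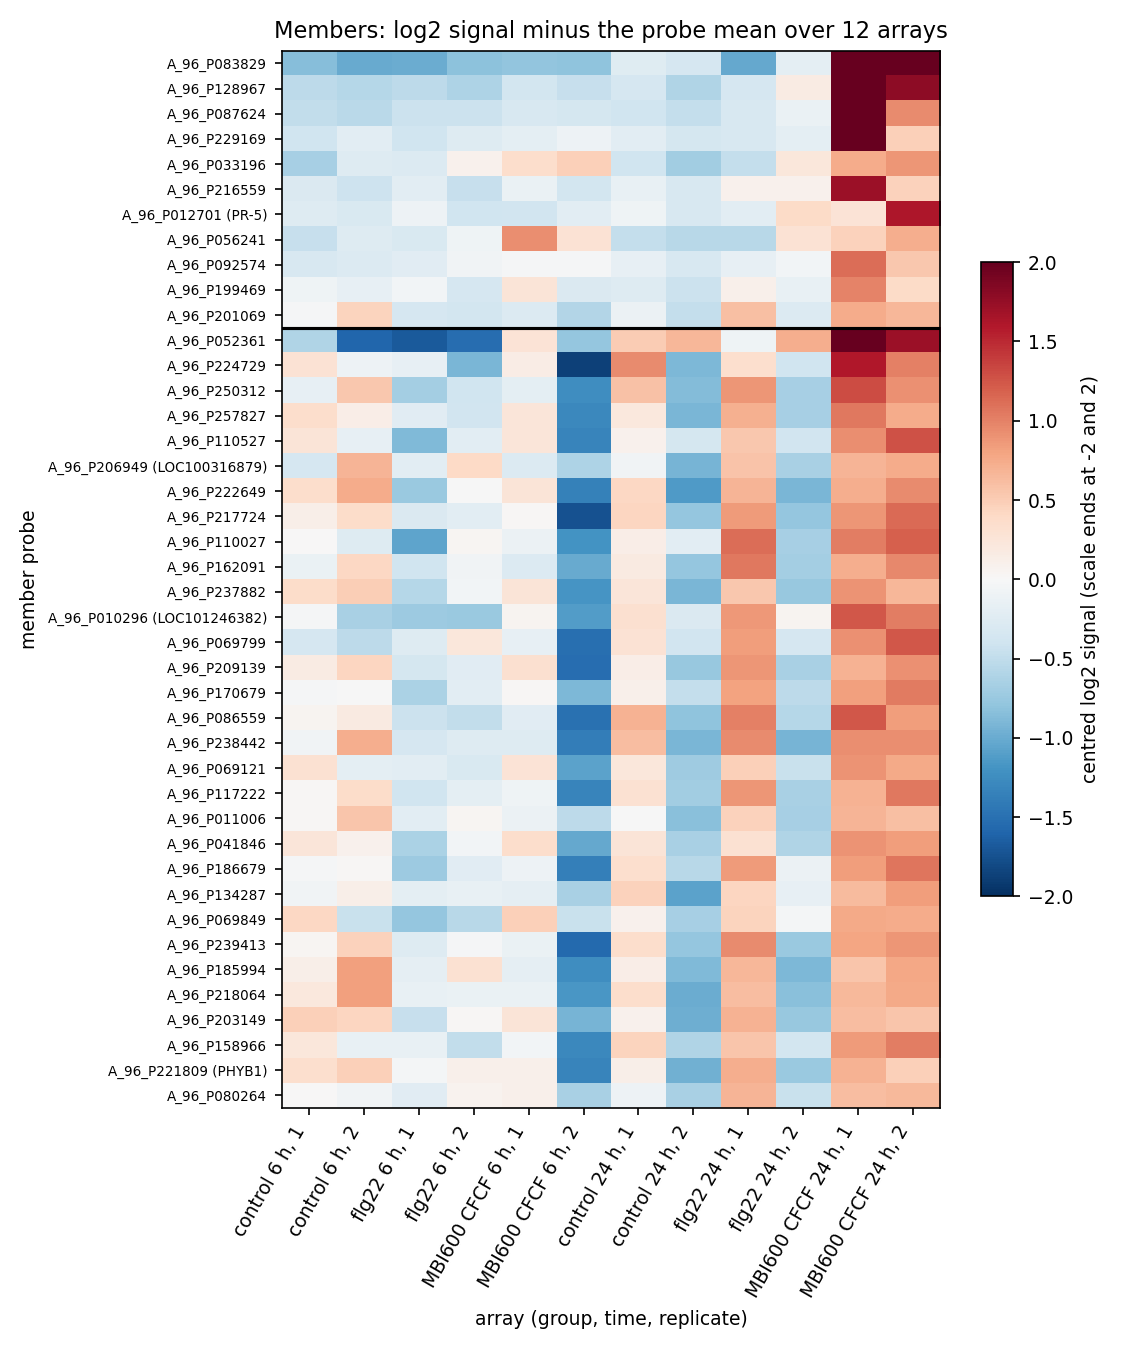
Log2 signal of each of the 42 members (rows) on the 12 arrays (columns), minus the probe's mean over the arrays; red is higher and blue lower, with the scale ended at -2 and 2. Above the black line are the 11 members with the lower control signal, which are red on the MBI600 CFCF arrays at 24 h, and below it the 31 others, which are blue on MBI600 CFCF replicate 2 at 6 h and mostly blue on control and flg22 replicate 2 at 24 h.

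The 31 members were on average lowest on the 3 arrays that were brightest before normalization. Control replicate 2 and flg22 replicate 2 at 24 h and MBI600 CFCF replicate 2 at 6 h had the highest median green intensities before normalization, 185, 166 and 168.5. The lowest were those of flg22 replicate 1 at 24 h (72) and of both MBI600 CFCF arrays at 24 h (83 and 81.5), on which the 31 members were highest. In 18 of the 42 members, all among the 31, the 3 bright arrays gave the 3 lowest of the 12 normalized signals, against 5.98% of all probes. The rule used 2 of these arrays, control and flg22 replicate 2 at 24 h, and favours probes that are low on them, so nothing is read from this share. The median green intensity of the control arrays at 24 h was 93 and 185, so the brightness of the arrays differed within the control and between the groups compared, and its part in the members' differences was not tested. The 11 members with the lower control signal averaged -0.44, 0.01 and -0.22 on the same 3 bright arrays and -0.24 on the dim flg22 array. Only 4 of these 11 had both control arrays at 24 h well above background, and near the floor a change with brightness would hardly show.

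**Figure D4:**
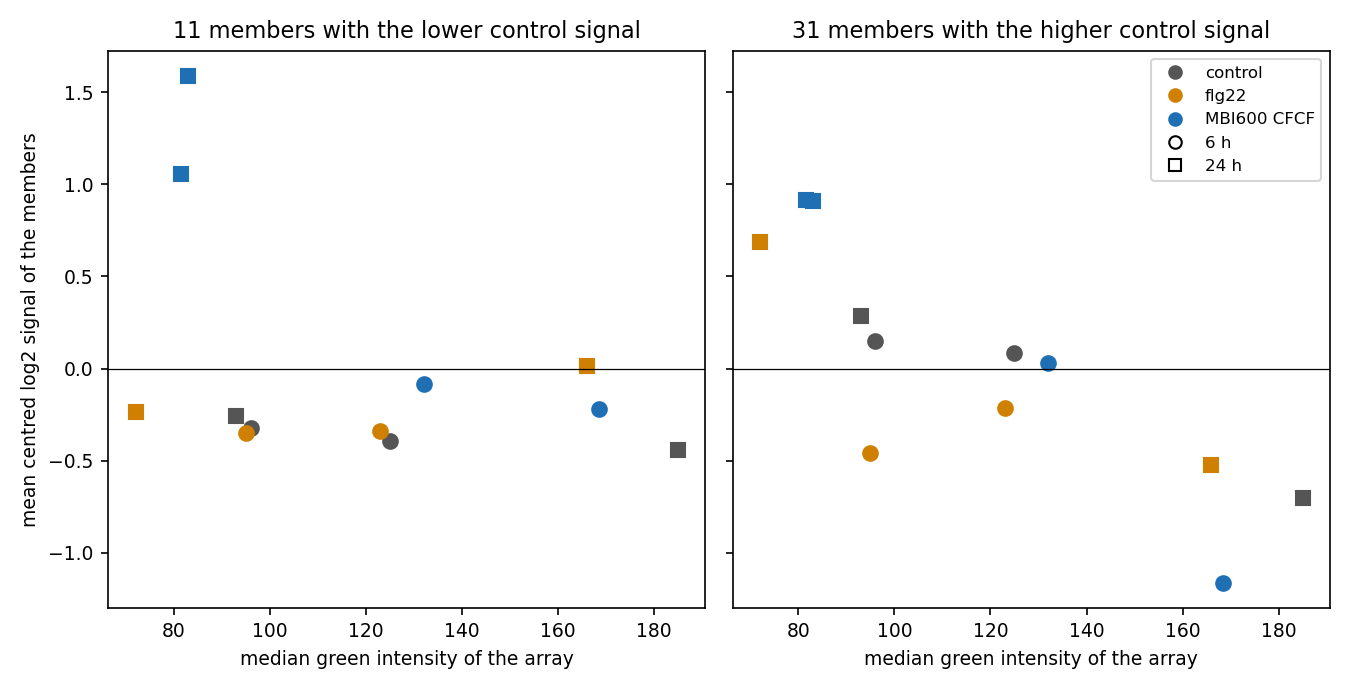
Mean centred log2 signal of the 11 members with the lower (left) and the 31 with the higher (right) control signal (y axis) against the median green intensity of each array before normalization (x axis); circles are 6 h and squares 24 h, and colours the treatments. On the right the 3 brightest arrays are the 3 lowest, and on the left both MBI600 CFCF arrays at 24 h stand above the other 10.

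The red channel, which the rule did not use, showed no excess of 1 or more at the same spots. What this channel held was not stated, so nothing is read from it about the green signals. The mean red signal of the MBI600 CFCF arrays at 24 h minus that of the control arrays ranged from -0.50 to 0.49 over the 42 members with a median of -0.02, and 0 members reached 1.

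Within slide 1, the median difference at 24 h was smaller. There all 42 members were higher with MBI600 CFCF than with the control, by a median of 0.67 (range 0.18 to 4.18), and 9 of them by at least 1. The difference was larger there than over all 24 h arrays in 8 members, 7 of them among the 11 with the lower control signal, whose median was 1.27 on slide 1 and 1.32 over all arrays. The flg22 difference on that slide had a median of 0.34 and was at least 0.5 in 15 members. For the 31 members with the higher control signal the slide 1 medians were 0.62 with MBI600 CFCF and 0.46 with flg22. Slide 3, with the second MBI600 CFCF array, held neither control nor flg22 at 24 h, so no second within-slide value can be had. Over all arrays, both MBI600 CFCF arrays exceeded both flg22 arrays in 29 of the 42 members (15.2% of all probes) and all 10 other arrays in 25 (3.99%), which the conditions of the rule favour.

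Membership changed with single arrays. The rule found 108 probes without control replicate 1, 15 without control replicate 2, 90 and 97 without MBI600 CFCF replicate 1 and 2, 116 without flg22 replicate 1 and 30 without flg22 replicate 2, of which 12, 10, 33, 31, 38 and 12 were among the 42. Taken within slide 1, the 24 h conditions selected 39 probes, 9 of them members.

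The comparison of MBI600 CFCF with the control at 6 h asked whether these probes had already moved by then, and it is the comparison that the rule did not use, apart from the 6 h control arrays in the flg22 range. In limma, 0 members were called, as were 0% of all probes, and 2 members had an unadjusted p under 0.05, both higher, against 2.56% of all probes in either direction and 1.34% in the higher one. The smallest adjusted p of a member was 0.949. An exact permutation test of 2 arrays against 2 cannot give a two-sided p under 0.333, so none was run. The median difference of the members was -0.60, against 0.00 over all probes, with 11 members higher (50.4% of all probes) and 31 lower.

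This lower median came from 1 slide. Within slide 2, with the first replicates, the median was -0.06 and 24 members were lower, whereas within slide 3, with the second, it was -1.09 and 31 were lower. The array of MBI600 CFCF on slide 3 is that with the median green intensity of 168.5. Without MBI600 CFCF replicate 2 the median of the members was 0.00, and without replicate 1 it was -1.10. Both MBI600 CFCF arrays lay below both control arrays in 17 members (15.6% of all probes), above them in 7 (13.9%) and in neither order in 18.

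The 2 groups of members are given side by side at 6 h, and their difference was not tested. In the 11, 9 were not well above background on all 4 arrays of the control and MBI600 CFCF at 6 h and had little room to fall, whereas all 31 others were. Of the 11 with the lower control signal, 9 were higher with MBI600 CFCF and the median difference was 0.14, with 0.17 on slide 2 and 0.12 on slide 3. Of the 31 with the higher control signal, 29 were lower with a median of -0.77, which was -0.11 on slide 2 and -1.39 on slide 3. All 7 members with both MBI600 CFCF arrays above both controls at 6 h were among the 11, and 16 of the 17 with both below were among the 31.

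**Figure D5:**
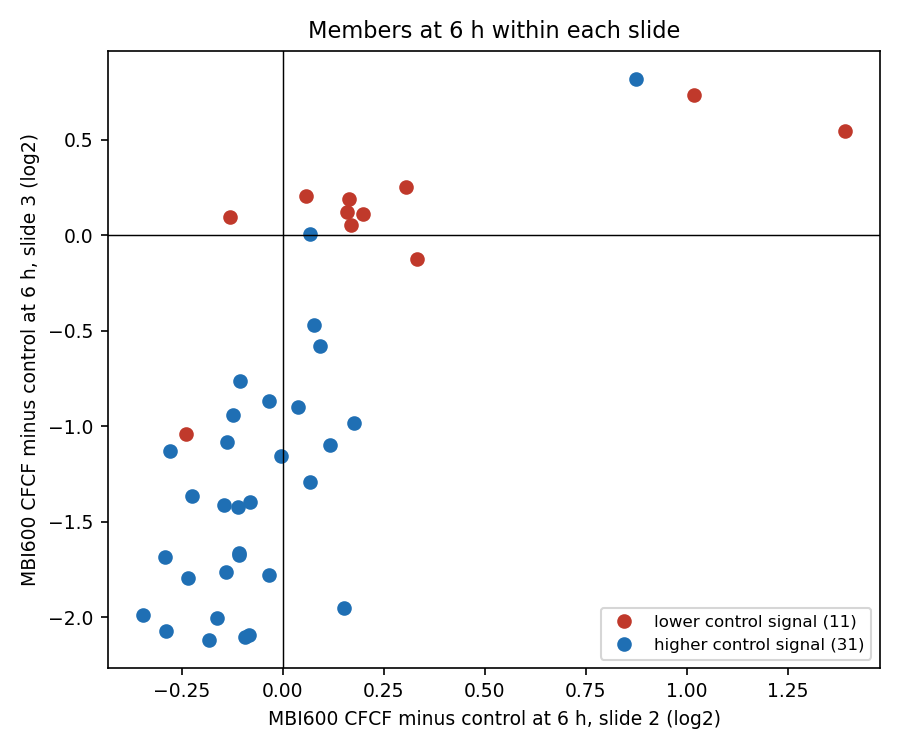
Difference between MBI600 CFCF and control at 6 h (log2) within slide 2 (x axis) and within slide 3 (y axis), each point 1 member; red marks the 11 with the lower and blue the 31 with the higher control signal at 24 h. Most blue points lie near 0 on slide 2 and between -0.5 and -2.1 on slide 3, while 8 of the 11 red points are above 0 on both.

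The members with the smallest p at 6 h were A_96_P033196 and A_96_P056241, named after their values were seen. A_96_P033196 gave 7.04 and 7.16 with MBI600 CFCF at 6 h and 6.02 and 6.42 in the control, and 7.42 and 7.56 against 6.28 and 5.98 at 24 h. Its difference at 6 h was 0.88 (SE 0.25, adjusted p = 0.949 in limma). A_96_P056241 gave 7.54 and 6.91 with MBI600 CFCF at 6 h and 6.15 and 6.36 in the control, and 7.08 and 7.34 against 6.14 and 6.07 at 24 h. Its difference at 6 h was 0.97 (SE 0.29, adjusted p = 0.949 in limma). In both, the MBI600 CFCF arrays exceeded the control arrays at either time, and the second flg22 array at 24 h (6.90 and 6.91) was also higher than both controls. Neither difference at 6 h passed the adjustment over all probes.

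Between 6 and 24 h, 41 of the 42 members were higher at the later time with MBI600 CFCF, by a median of 1.40, while in the control 31 were lower at the later time, with a median of -0.28. A_96_P056241 was the exception with MBI600 CFCF, at -0.01. In the control, the 11 members with the lower signal changed by a median of 0.06 and the 31 others by -0.36. Both times' values enter with the arrays described above. The 24 h arrays chose the members, high with MBI600 CFCF and low in the control, which favours both directions. The shares over all probes are not given, so nothing is read from these counts and no test is given.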

How the data were processed

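RNA of tomato seedlings was measured on 12 arrays, 2 per group. The authors' deposited table is on the log2 scale. For it the green median signals had been background-corrected with normexp at an offset of 50 and then quantile normalized. The rule was applied to this table after averaging its 43803 spots to 43603 probes. The scanner output deposited by the authors (Agilent Feature Extraction 10.7.3.1) holds the intensity of each spot in both channels, not normalized, and flags of spots well above background. Computing the log2 values again from it differed by at most 5e-09. A mean per group was fitted to all 12 arrays in limma 3.58.1 (R 4.3.3), with outlier spots set to missing, an empirical Bayes test and Benjamini-Hochberg adjustment over all probes. Calls needed both an adjusted p below 0.1 and a log2 difference of 2 or more in size. SDs and SEs are in log2 units over arrays, whose number limits the precision. The limma fit and its calls were tested on simulated independent values with the same spread for every probe.

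The members, the lists and the tests were chosen with earlier results of these data known. Genes named were members with a symbol, members in a list, the 2 largest without a symbol, the 2 nearest each limit on either side, called members and members of up to 4 sequences with several probes; other names are marked as chosen later. Symbols came from the RefSeq gene table of assembly SLM_r2.1, used for names only. No genome or sequence was used, so neither positions nor sequences are given and the planned search of promoter motifs was not run. Alternatives were other background corrections and scalings, the green to red ratio, outlier spots kept, the slide or the replicate number as a term, other filters, thresholds and fits, 1 probe per sequence, and each array left out. Those added after seeing the data were the crossed pairing, and the rule without single arrays and within slide 1.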

Additional observations from a re-analysis of the deposited data

Results flagged for a closer look

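In 17 of the 42 members, both MBI600 CFCF arrays lay above both control arrays at 24 h and below both at 6 h. The direction at 24 h was fixed by the choice of the members, the difference between the times was not tested, and 15.6% of all probes had both arrays below both controls at 6 h. The difference from the control at 6 h was -1.18 in A_96_P185994, -1.17 in A_96_P218064, -1.15 in A_96_P238442, -1.10 in A_96_P217724 and -1.09 in A_96_P222649. It was -1.08 in A_96_P239413, -1.01 in A_96_P221809 (PHYB1), -0.99 in A_96_P086559, -0.91 in A_96_P250312, -0.89 in both A_96_P117222 and A_96_P237882 and -0.80 in A_96_P203149. It was -0.78 in A_96_P162091, -0.74 in A_96_P186679, -0.64 in A_96_P201069, -0.61 in A_96_P011006 and -0.43 in A_96_P134287. Their differences at 24 h lay between 1.00 and 1.25. All but A_96_P201069 were among the 31 members with the higher control signal, which were lowest on the bright array of MBI600 CFCF replicate 2 at 6 h, and the part of that array's brightness was not tested.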

How the results depend on the processing

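Every member was higher with MBI600 CFCF at 24 h by construction, so stability of that direction carries no weight. The number of members, 42, depended most on the processing. It was 385 with processed scanner signals at a common 75th percentile, 165 with that percentile in place of the quantile method, 103 at a normexp offset of 16 and 75 without background subtraction, of which 26, 29, 33 and 33 were among the 42. The green to red ratio gave 59, with 20 of the 42. With a difference of at least 1.5 it was 4 and with a flg22 difference under 0 it was 3. Without single arrays (chosen after seeing the data) it ranged from 15 to 116. The cause was not tested. The median difference at 24 h stayed within 0.67 (within slide 1) to 1.55 (without control replicate 1). The median at 6 h ranged from -1.10 to 0.00 without single arrays, the value without MBI600 CFCF replicate 2 being on the other side of 0 (0.0038), and was -0.06 within slide 2.

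The 2 members called at 24 h became 1 with the processed signal and with the 75th percentile, and 0 with the green to red ratio, with a term for the slide and in a fit of the 4 arrays compared alone. With the slide term the differences were 3.96 for A_96_P083829 and 2.65 for A_96_P128967, and with the ratio 3.62 and 1.87. They ranged from 0 to 4 without single arrays. With the replicate number as a block there were 0. The sources do not pair the numbers, and the deviations of same-numbered arrays correlated at -0.15 at 24 h and 0.42 at 6 h (2 pairs each). With the pairing crossed at 24 h (chosen after seeing the data) 1 was called. At 6 h, 0 members were called under every alternative run, with or without the replicate block. The 2 members at an unadjusted p under 0.05 at 6 h became 4 with the processed signal, at offset 16 and with the slide as a term, 1 with the 75th percentile and 5 with a trended and robust empirical Bayes step, and from 2 to 17 without single arrays (17 without MBI600 CFCF replicate 1). Probes near background have less certain differences, and 7 members had at most 1 control array at 24 h well above background. Of the 228 values of single named members under these alternatives, 40 moved by more than the spread between replicates and 0 changed direction.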
